A study of Homo sapiens with 14 samples.

Results

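TSC22D3, which encodes the glucocorticoid-induced leucine zipper protein GILZ, was measured together with its paralogs TSC22D1, TSC22D2 and TSC22D4, with the glucocorticoid receptor gene NR3C1, and with the receptor's response genes FKBP5, PER1 and KLF9, in HEK293T cells that lack SETD2 and in wild type HEK293T cells. The starting point was chosen by its measured values: the transcript ENST00000372397 of TSC22D3 was lower in the knockout and passed the authors' test there, and its values are given as a description. The other 7 genes were taken by name, with earlier results of these data known. Transcripts were assigned to a gene where their hg19 locus held a fixed position within it, which gave 98 transcripts at 8 loci, of 204092 transcripts at 35671 loci in all. Of the 98, 70 had been tested by the authors and 28 had not.

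HEK293T derives from human embryonic kidney and expresses the SV40 large T antigen. SETD2 is the enzyme that trimethylates lysine 36 of histone H3 along transcribed genes. RNA depleted of ribosomal RNA was sequenced from 3 SETD2 knockout and 3 wild type libraries, and both groups share the HEK293T background with no steroid or other agent named in the labels. The protocol under 1 wild type RNA label describes chromatin immunoprecipitation in place of RNA extraction. The knockout allele, and whether the knockout cells are 1 clone or a pool, are not stated in the labels. A further 8 samples, ChIP of histone marks, were not analysed here.

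The deposited tables hold 1 FPKM value per transcript and group (fragments scaled by the authors for transcript length and library size), so no value per library, no spread between libraries and no depth could be given. The labels do not state separate cultures for the libraries, so the deposited p-values may measure technical spread only. A table of tests gives the group values with the authors' p-values and q-values, and a tracking table gives group values with a lower and an upper bound whose level is not in the file. Wild type values of the 49 transcripts described here that reached 0.5 FPKM differed between the tables by a nearly constant factor, 0.974 to 0.981. Knockout values did not: for the 46 such transcripts the factor ran from 0.651 to 2.82, and for 19 of them it lay within 1% of 0.652, the most frequent factor over the series. Values below are from the table of tests unless the tracking table is named. Bounds are from the tracking table and surround its values, not the values printed beside them. In the knockout these values can differ by the factors above.

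Glucocorticoids act through the receptor encoded by NR3C1, which waits in the cytoplasm in a complex with HSP90 and its cochaperones and binds DNA as a dimer once the hormone is bound. TSC22D3 is among its best known targets in lymphoid and many other cells, and its product holds back the inflammatory factors NF-kB and AP-1. The 4 TSC22D proteins share a TSC box next to a leucine zipper through which they pair. FKBP5 encodes a cochaperone that lowers the receptor's affinity for hormone and is itself induced by it, which closes a feedback loop. PER1, a repressor of the circadian clock, and KLF9, a zinc finger repressor that binds GC-rich and CACCC elements, are also direct targets.

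RefSeq promoter windows were found by symbol for 7 of the 8 genes, all except TSC22D2, and gave 21 start sites on build GRCh38.p14. The 250 bases upstream of a start are shown for 4 of them. The first is the outermost TSC22D3 start and the second an internal TSC22D3 start, shown because this gene differed most. The third is the one window with a receptor hexamer, and the fourth is the single PER1 window. Capitals mark AGAACA or TGTTCT, the hexamers of the glucocorticoid response element, the Krüppel-type element CACCC or its complement GGGTG, the TATA element TATAAA or its complement TTTATA, and the clock element CACGTG. All lie on the minus strand, and all are written 5′ to 3′ in the direction of transcription.
TSC22D3 outermost start, chrX:107775989-107776238: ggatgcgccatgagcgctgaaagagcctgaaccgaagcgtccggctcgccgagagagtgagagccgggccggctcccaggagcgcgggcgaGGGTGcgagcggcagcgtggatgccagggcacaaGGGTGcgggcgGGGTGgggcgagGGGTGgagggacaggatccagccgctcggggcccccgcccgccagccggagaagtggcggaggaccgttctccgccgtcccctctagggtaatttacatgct
TSC22D3 internal start, chrX:107717063-107717312: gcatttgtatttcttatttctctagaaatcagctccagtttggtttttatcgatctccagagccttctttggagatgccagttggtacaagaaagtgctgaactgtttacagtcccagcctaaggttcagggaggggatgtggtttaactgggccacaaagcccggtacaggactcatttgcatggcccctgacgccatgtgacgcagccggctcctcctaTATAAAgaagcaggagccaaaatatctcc
TSC22D1 internal start, chr13:44474342-44474591: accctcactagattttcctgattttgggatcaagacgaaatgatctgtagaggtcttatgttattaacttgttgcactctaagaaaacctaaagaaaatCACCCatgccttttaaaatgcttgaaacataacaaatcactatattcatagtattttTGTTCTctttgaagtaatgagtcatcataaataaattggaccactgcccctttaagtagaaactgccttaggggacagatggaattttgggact
PER1 start, chr17:8152405-8152654: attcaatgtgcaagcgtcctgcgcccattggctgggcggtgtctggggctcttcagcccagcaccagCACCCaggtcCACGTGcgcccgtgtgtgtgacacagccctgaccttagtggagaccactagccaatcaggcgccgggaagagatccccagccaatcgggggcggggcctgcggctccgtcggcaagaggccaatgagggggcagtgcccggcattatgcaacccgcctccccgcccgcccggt

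A receptor hexamer on either strand was found in 1 of the 21 windows, that of TSC22D1 above, where it lay 94 to 89 bases before the start, and in 12.4% of the 34943 windows of the same length in RefSeq's promoter table. The full palindrome, both hexamers 3 bases apart, occurred in 0 of the 21 windows and in 1 window of the table. None of the 4 TSC22D3 windows held a receptor hexamer within these 250 bases. The internal TSC22D3 start had a TATA element 29 to 24 bases upstream and a GC content of 48.0%, while the outermost start had a GC content of 71.2% and 4 matches to the Krüppel-type element. A TATA element was present in 4 of the 21 windows, against 10.8% in the table, and a Krüppel-type element in 10 of the 21, against 54.7%. The clock element stood in 3 of the 21, against 6.32%. One of these is the PER1 window, where the element lay 173 to 168 bases before the start. The TATA and clock elements were added after the windows had been read, windows of 1 gene can overlap, and the files do not say which start a deposited transcript uses.

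In the knockout, the TSC22D3 locus (hg19 chromosome X, 106956451 to 107020572) was 6.09-fold lower than in wild type cells, while the other 7 loci lay between 1.04-fold lower and 1.76-fold higher. Summed over its 17 transcripts, TSC22D3 stood at 18.5 FPKM in knockout cells and 112.6 FPKM in wild type cells, a log2 fold of -2.61. In the tracking table the sums were 17.4 FPKM in knockout cells and 110.0 FPKM in wild type cells, 6.34-fold lower. Of the 12467 loci with a sum above 0 in both groups and 1 FPKM or more in one, 151 (1.21%) had a lower fold. Locus sums at least 1.5-fold lower in the knockout made up 11.1% of these loci, and TSC22D3 was the 1 of the 8 among them. The transcript on which TSC22D3 was chosen holds 62.4% of its wild type sum. Nothing is therefore read from this rank or this count. Fewer cells with the transcript and less RNA per cell cannot be told apart in bulk RNA.

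**Figure D1:**
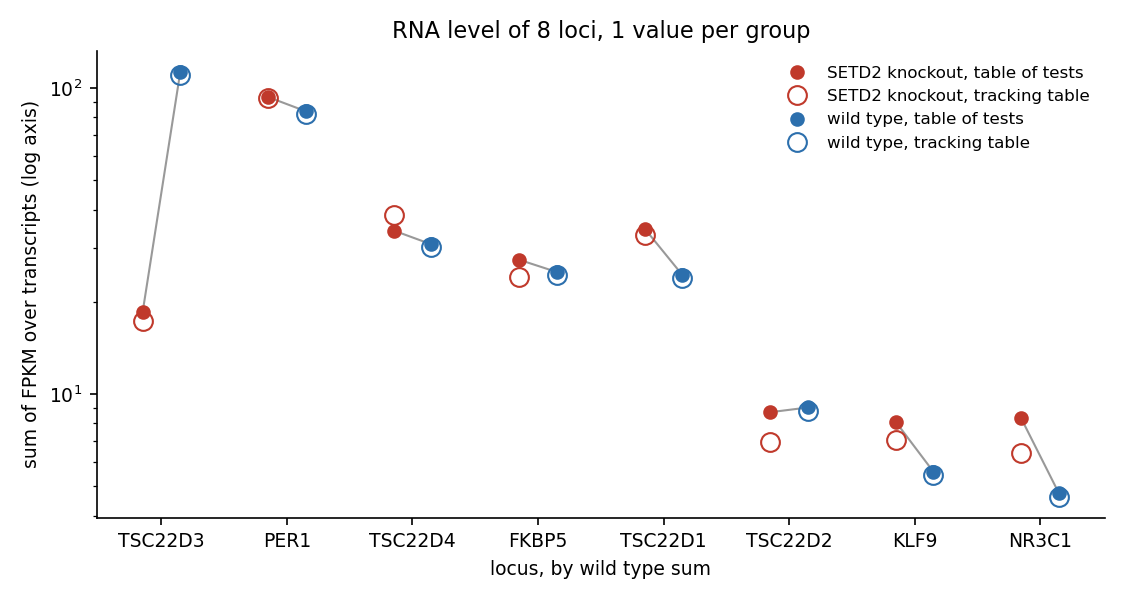
Sum of FPKM over all transcripts of each locus (log axis) in the SETD2 knockout (red, left) and the wild type (blue, right), with 1 value per group from the table of tests (filled) and from the tracking table (open). TSC22D3, chosen on this contrast, is at 18.5 FPKM in knockout cells and 112.6 FPKM in wild type cells. The values of the other 7 loci lie closer together.

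The transcript ENST00000372397 carried most of the TSC22D3 signal in wild type cells. It had 6.92 FPKM in knockout cells and 70.3 FPKM in wild type cells. In the tracking table it had 8.53 FPKM in knockout cells and 68.7 FPKM in wild type cells. Its bounds around these values were 3.44 to 13.6 FPKM in knockout cells and 44.0 to 93.3 FPKM in wild type cells, and did not overlap. It was the 1 of the 70 tested transcripts that passed a q-value of 0.05, with q = 0.0220 in the authors' deposited table, and it fell. The authors' deposited table called 0.255% of all tested transcripts, 0.192% as lower and 0.0629% as higher in the knockout. The transcript was chosen on this contrast, so nothing is read from that count. Its share of the locus sum was 37.4% in knockout cells and 62.4% in wild type cells.

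The other 16 transcripts of TSC22D3 together had 11.6 FPKM in knockout cells and 42.3 FPKM in wild type cells, 3.66-fold lower. Of these 16, 10 were lower in the knockout, 3 were higher and 3 were at 0 in both groups. ENST00000514426 had 3.21 FPKM in knockout cells and 13.3 FPKM in wild type cells. ENST00000486554 had 1.05 FPKM in knockout cells and 6.58 FPKM in wild type cells. Both ENST00000503515, at 0.212 FPKM in knockout cells and 5.82 FPKM in wild type cells, and ENST00000372390, at 0.153 FPKM in knockout cells and 5.55 FPKM in wild type cells, were near 0 in the knockout. ENST00000372382 had 1.44 FPKM in knockout cells and 2.30 FPKM in wild type cells. The bounds of all 16 overlapped between the groups. Each of the 16 had a wild type lower bound of 0, so a fall in the knockout could not have set its bounds apart. Reads that fit several transcripts of a locus are divided among them by estimation. The values of single transcripts are therefore less certain than their sum.

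The 3 TSC22D3 transcripts that were higher in the knockout were low in both groups. They are named here after their values were seen. ENST00000372383 had 2.62 FPKM in knockout cells and 2.04 FPKM in wild type cells, with bounds of 0.550 to 4.83 FPKM in knockout cells and 0 to 5.91 FPKM in wild type cells. ENST00000505965 had 1.60 FPKM in knockout cells and 1.15 FPKM in wild type cells. ENST00000372384 had 0.743 FPKM in knockout cells and 0.324 FPKM in wild type cells. None of these 3 passed the authors' test.

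**Figure D2:**
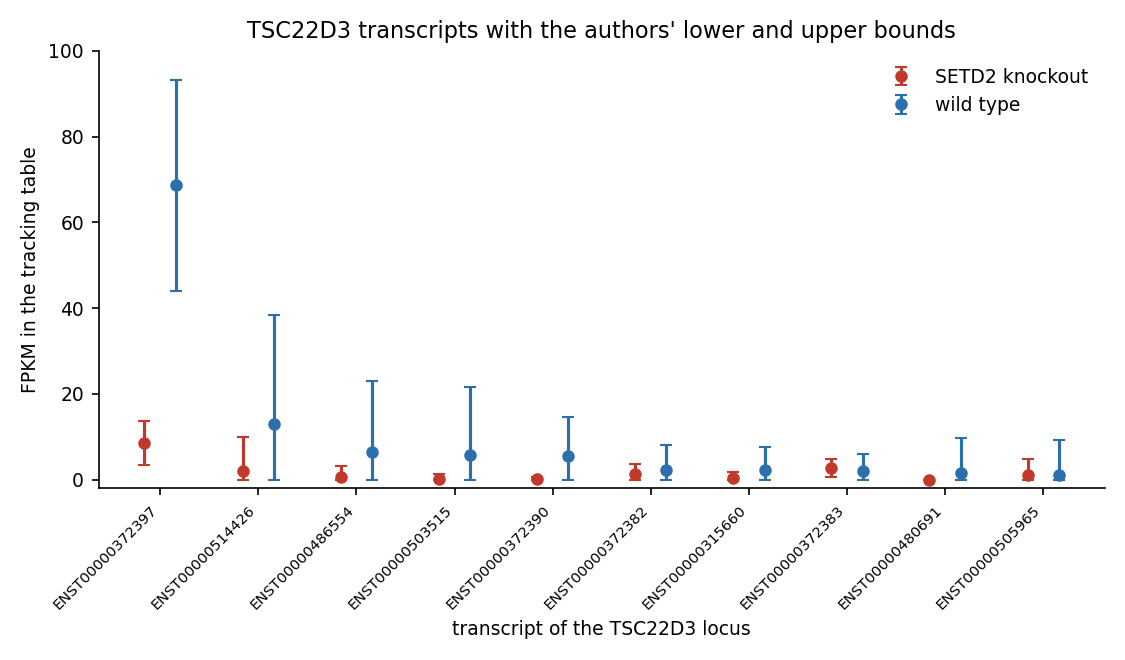
FPKM of the 10 TSC22D3 transcripts that reached 1 FPKM in either group of the table of tests, shown with the tracking table's value (points) and its lower and upper bounds (bars), SETD2 knockout in red left of wild type in blue. Only the bars of ENST00000372397, 3.44 to 13.6 FPKM in knockout cells and 44.0 to 93.3 FPKM in wild type cells, stay apart.

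All 3 paralogs were within 1.5-fold of their wild type sums. TSC22D1, first described as a gene stimulated by TGF-beta (chromosome 13, 45007655 to 45151283), summed to 34.6 FPKM over 13 transcripts in the knockout and 24.4 FPKM in wild type cells, a log2 fold of 0.50. Its sums in the tracking table were 33.1 FPKM in knockout cells and 23.9 FPKM in wild type cells. Its leading transcript ENST00000261489 had 22.2 FPKM in knockout cells and 17.3 FPKM in wild type cells, with bounds of 11.9 to 31.4 FPKM in knockout cells and 8.49 to 25.3 FPKM in wild type cells. ENST00000458659 had 4.56 FPKM in knockout cells and 3.68 FPKM in wild type cells. The other 3 of at least 1 FPKM in a group, ENST00000487881, ENST00000493016 and ENST00000501704, lay between 1.49 and 2.03 FPKM in knockout cells and between 0.284 and 0.609 FPKM in wild type cells. All bounds overlapped, and the lowest p at the locus in the authors' deposited table, computed by Cuffdiff, was 0.0947 (q = 0.991).

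TSC22D4 (chromosome 7, 100054238 to 100076902) summed to 34.2 FPKM over 9 transcripts in the knockout and 30.8 FPKM in wild type cells, a log2 fold of 0.15. The tracking table's sums were 38.3 FPKM in knockout cells and 30.1 FPKM in wild type cells, a log2 fold of 0.35. Its leading transcript ENST00000300181 had 17.3 FPKM in both groups, with bounds of 8.96 to 29.0 FPKM in knockout cells and 8.51 to 25.4 FPKM in wild type cells. ENST00000393991 had 12.0 FPKM in knockout cells and 9.21 FPKM in wild type cells. A pair of low transcripts was higher in the knockout, ENST00000493217 with 1.43 FPKM in knockout cells and 0.796 FPKM in wild type cells, and ENST00000456330 with 2.40 FPKM in knockout cells and 0.674 FPKM in wild type cells. ENST00000423266 was listed at 0 in the knockout and had 1.66 FPKM in wild type cells. The locus is longer than the RefSeq gene, 22665 against 12696 bases, and RefSeq on GRCh38 places SPACDR and a joint transcript with it beside TSC22D4, so the sum can hold RNA of a neighbour.

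TSC22D2 (chromosome 3, 150126122 to 150184218) was the lowest of the family in both groups, with 8.71 FPKM over 7 transcripts in the knockout and 9.02 FPKM in wild type cells. Its leading transcript ENST00000361136 had 5.24 FPKM in knockout cells and 6.20 FPKM in wild type cells, with overlapping bounds of 2.54 to 6.32 FPKM in knockout cells and 2.18 to 9.90 FPKM in wild type cells. ENST00000485421 had 1.73 FPKM in knockout cells and 0.754 FPKM in wild type cells, and ENST00000466814 was listed at 0 in the knockout and at 1.13 FPKM in wild type cells. The listed transcript ENST00000361875 stayed low, at 0.288 FPKM in knockout cells and 0.178 FPKM in wild type cells. In the tracking table the sum was lower by more, 6.95 FPKM in the knockout against 8.80 FPKM in wild type cells, a log2 fold of -0.34 in place of -0.05.

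The make-up of the TSC22D family differed between the groups. TSC22D3 supplied 19.3% of the summed FPKM of the 4 genes in the knockout and 63.7% in wild type cells. TSC22D1 supplied 36.1% in knockout cells and 13.8% in wild type cells. TSC22D4 supplied 35.6% in knockout cells and 17.4% in wild type cells, and TSC22D2 9.07% in knockout cells and 5.10% in wild type cells. The family total was 96.0 FPKM in knockout cells and 176.9 FPKM in wild type cells, 1.84-fold lower. The total without TSC22D3 was 77.5 FPKM in knockout cells and 64.3 FPKM in wild type cells, 1.21-fold higher. TSC22D3 was chosen on this contrast, so nothing is read from the shares or from the family total. These shares and totals use the whole TSC22D4 locus, whose sum can hold RNA of a neighbour. Its listed transcript ENST00000300181 alone had 17.3 FPKM in both groups.

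**Figure D3:**
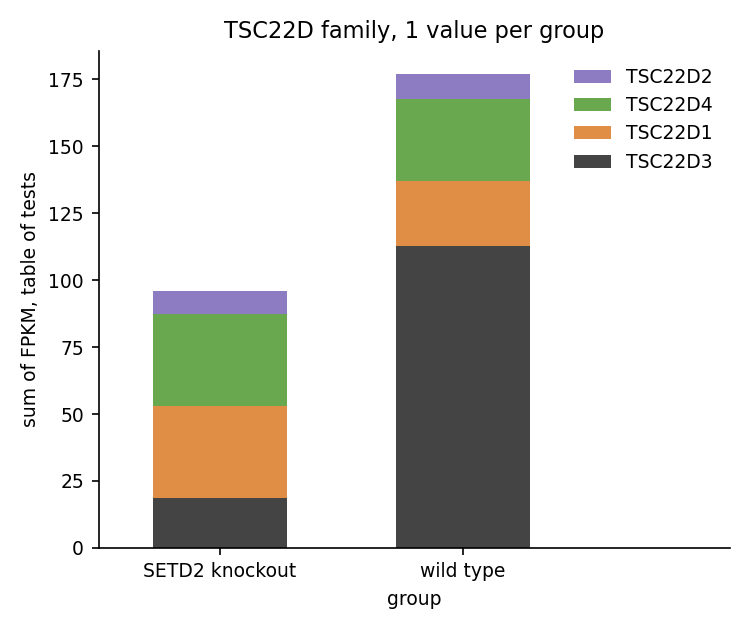
Summed FPKM of the 4 TSC22D genes in the SETD2 knockout (left) and the wild type (right), stacked with TSC22D3 at the bottom, 1 value per group and no error bar. TSC22D3 makes up 19.3% of the knockout bar and 63.7% of the wild type bar. It was chosen on this contrast, so nothing is read from these shares. The TSC22D4 part can hold RNA of a neighbour.

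NR3C1, the receptor gene (chromosome 5, 142657496 to 142815077), had the lowest sum of the 8 loci in wild type cells. Its 18 transcripts summed to 8.30 FPKM in knockout cells and 4.73 FPKM in wild type cells, 1.76-fold higher. It was the 1 of the 8 loci at least 1.5-fold higher in the knockout, against 13.1% of all expressed loci. The leading transcript ENST00000394464 had 2.91 FPKM in knockout cells and 2.12 FPKM in wild type cells, with overlapping bounds of 1.06 to 4.44 FPKM in knockout cells and 0.453 to 3.68 FPKM in wild type cells. ENST00000424646 had 1.16 FPKM in knockout cells and 0.887 FPKM in wild type cells. ENST00000502892 had 1.70 FPKM in the knockout, 20.5% of the locus sum, and was listed at 0 in wild type cells. Its knockout value in the tracking table was 1.11 FPKM, with bounds of 0 to 5.77 FPKM that reach the wild type value of 0. In the tracking table the sums were 6.41 FPKM in knockout cells and 4.61 FPKM in wild type cells, 1.39-fold higher, below the bound of 1.5. The listed transcript ENST00000343796 was at 0 in both groups, and no transcript passed the authors' test, with a lowest p in the authors' deposited Cuffdiff table of 0.0926.

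FKBP5, the cochaperone gene (chromosome 6, 35541362 to 35696360), summed to 27.4 FPKM over 9 transcripts in the knockout and 25.0 FPKM in wild type cells. Its RNA lay almost wholly in a pair of transcripts that leaned opposite ways. ENST00000357266 had 12.3 FPKM in knockout cells and 15.3 FPKM in wild type cells, with bounds of 6.83 to 17.6 FPKM in knockout cells and 8.92 to 21.0 FPKM in wild type cells. ENST00000540787 had 14.9 FPKM in knockout cells and 9.37 FPKM in wild type cells, with bounds of 0.591 to 22.9 FPKM in knockout cells and 0 to 18.8 FPKM in wild type cells. ENST00000357266 held 44.8% of the locus in the knockout and 61.3% in wild type cells. The bounds of both overlapped, and their p-values in the authors' deposited Cuffdiff table were 0.210 and 0.239. In the tracking table the sum was 24.1 FPKM in knockout cells and 24.4 FPKM in wild type cells.

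KLF9 (chromosome 9, 72999503 to 73029540) is the one locus of the 8 with a single transcript in the files. ENST00000377126 had 8.10 FPKM in knockout cells and 5.56 FPKM in wild type cells, 1.46-fold higher. The bounds were 4.55 to 9.61 FPKM in knockout cells and 3.42 to 7.43 FPKM in wild type cells, and overlapped. Its unadjusted p in the authors' deposited Cuffdiff table was 0.0181 and its q 0.991. It was 1 of 2 among the 70 tested transcripts with an unadjusted p under 0.05, the other being ENST00000372397, against 2.38% of all tested transcripts. In the tracking table the knockout value was 7.08 FPKM and the wild type value 5.43 FPKM, 1.30-fold higher.

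PER1 is described by its listed transcript ENST00000317276, since its locus (chromosome 17, 8043790 to 8066864) spans 23075 bases against 11933 for the RefSeq gene, and RefSeq on GRCh38 places VAMP2 next to PER1. The files do not say which of the 24 transcripts belong to which gene. ENST00000317276 had 7.04 FPKM in knockout cells and 6.90 FPKM in wild type cells, with bounds of 2.27 to 13.4 FPKM in knockout cells and 0 to 14.5 FPKM in wild type cells. ENST00000404970 had 7.55 FPKM in knockout cells and 5.99 FPKM in wild type cells. ENST00000316509, the highest transcript of the locus in both groups, had 21.3 FPKM in knockout cells and 30.4 FPKM in wild type cells. ENST00000585284 had 13.6 FPKM in knockout cells and 10.8 FPKM in wild type cells, and ENST00000498285 had 18.5 FPKM in knockout cells and 6.95 FPKM in wild type cells. ENST00000578089 had 3.80 FPKM in knockout cells and 5.40 FPKM in wild type cells. All bounds overlapped, and the whole locus summed to 93.3 FPKM in knockout cells and 83.8 FPKM in wild type cells, or 92.8 FPKM in knockout cells and 81.8 FPKM in wild type cells in the tracking table.

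For the 6 loci other than those of PER1 and TSC22D4, locus and RefSeq gene had similar lengths, for example 157582 bases each for NR3C1 and 64122 against 62768 bases for TSC22D3. The PER1 locus was left out of the order of levels, because its sum can hold another gene's RNA. TSC22D4 was kept although the same holds for its sum, so its place and the ranks below it are less certain. In knockout cells the 7 loci other than PER1 ran TSC22D1, TSC22D4, FKBP5, TSC22D3, TSC22D2, NR3C1 and KLF9 by locus sum in the table of tests. The knockout order in the tracking table was TSC22D4, TSC22D1, FKBP5, TSC22D3, KLF9, TSC22D2 and NR3C1. TSC22D3 was the fourth of the 7 in both tables, while the places around it depended on the table. In wild type cells the order was TSC22D3, TSC22D4, FKBP5, TSC22D1, TSC22D2, KLF9 and NR3C1 in both tables. The deposited bounds belong to single transcripts, so they bear on the leading transcripts and not on the order of the sums. In knockout cells the bounds of the leading TSC22D3 transcript overlapped those of the leading transcripts of all 6 others. In wild type cells its lower bound, 44.0 FPKM, lay above the upper bounds of the other 6, the highest of which was 25.4 FPKM for ENST00000300181 of TSC22D4. The leading TSC22D3 transcript was chosen on the contrast of the groups. Nothing is therefore read from this separation or from the places of TSC22D3 in the 2 groups. NR3C1 and KLF9 differed little in their knockout sums, 8.30 FPKM and 8.10 FPKM. The bounds of their leading transcripts were 1.06 to 4.44 FPKM for NR3C1 and 4.55 to 9.61 FPKM for KLF9. These transcripts held 35.0% of the NR3C1 knockout sum and 100% of the KLF9 sum, so their bounds do not order the genes.

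**Figure D4:**
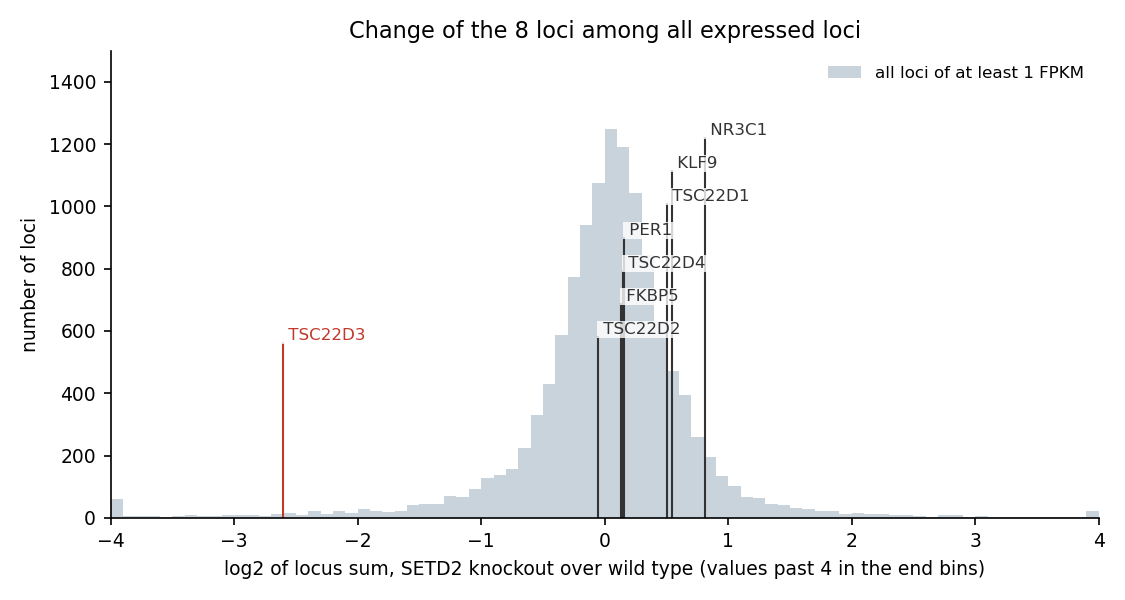
Number of loci by log2 fold of the locus sum, SETD2 knockout over wild type, for the 12467 expressed loci (grey bars), with the 8 loci as labelled lines whose heights carry no value. TSC22D3, chosen on this contrast, is at -2.61 and the other 7 lie between -0.05 and 0.81.

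Over all expressed loci the median log2 fold was 0.06, and over the 8 loci it was 0.15. Of the 12467 loci, 93.0% had a lower fold than NR3C1, 85.3% a lower fold than KLF9 and 83.9% a lower fold than TSC22D1. The share was 59.4% for the PER1 locus, 58.9% for TSC22D4, 57.3% for FKBP5 and 39.5% for TSC22D2. Of the 68 transcripts of the 8 loci above 0 in both groups of the tracking table, 1 had bounds that did not overlap, ENST00000372397, where 0.308% of all such transcripts did; since this transcript was chosen on the same contrast, nothing is read from that count. The other 69 tested transcripts had q-values that rounded to 0.991 or more in the authors' deposited table, which does not show that their levels were equal.

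Around TSC22D3, within 1 Mb, 11 expressed loci had a median log2 fold of -0.25, from -0.73 to 0.41, and 0 of them had a lower fold than TSC22D3 at -2.61. On chromosome X 14 of 555 loci had a lower fold, and the chromosome's median was -0.06. Since TSC22D3 was chosen on this contrast, nothing is read from its place among these loci. Around TSC22D2 the 8 neighbours had a median of -0.34, against -0.05 for TSC22D2 itself, and 7 of the 8 had a lower fold. The median over the 664 loci of chromosome 3 was -0.22. Around TSC22D1 the median was 0.18 over 12 loci, and around TSC22D4 it was -0.13 over 37 loci. KLF9, at 0.54, lay above all 5 of its neighbours, whose median was -0.42. NR3C1 had 2 expressed neighbours, both with a lower fold.

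**Figure D5:**
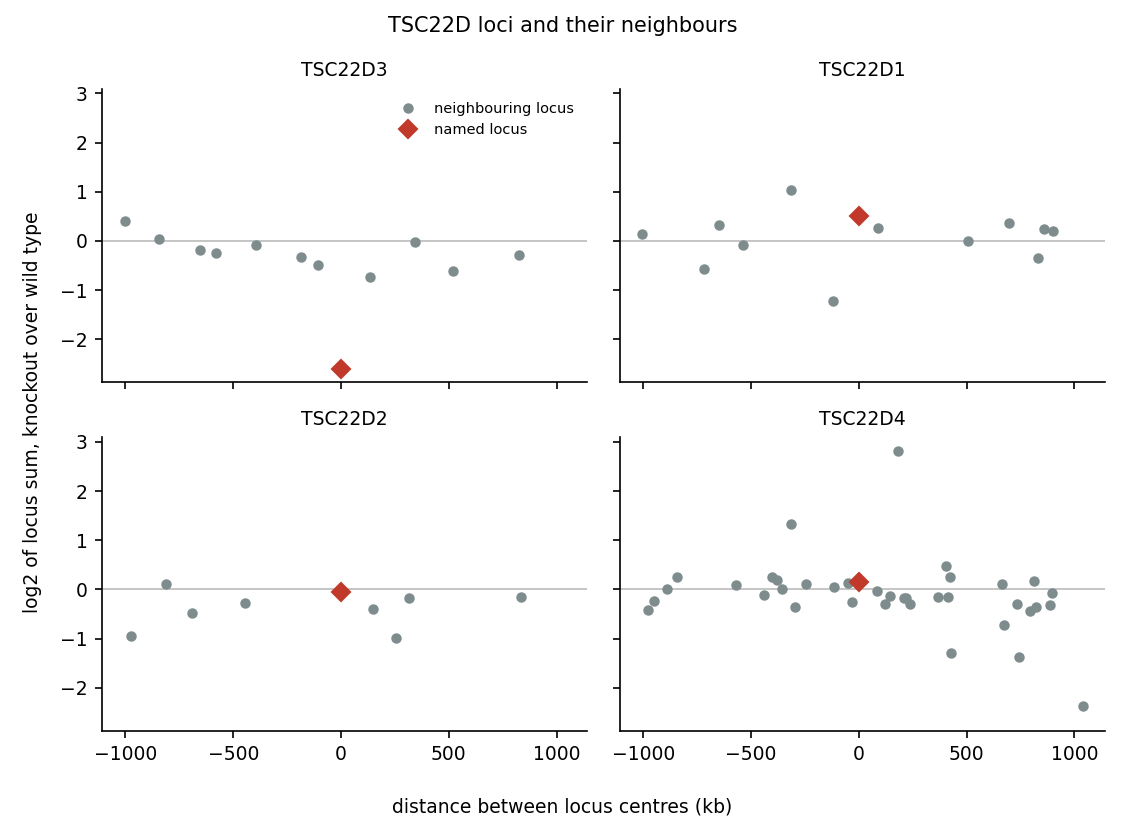
Log2 fold of the locus sum, SETD2 knockout over wild type, of each TSC22D locus (red diamond) and of the expressed loci within 1 Mb (grey points), by distance between locus centres in kb. The TSC22D3 locus at -2.61 lies below its 11 neighbours, which range from -0.73 to 0.41, while the other TSC22D loci lie among theirs. Only TSC22D3 was chosen on this contrast, so nothing is read from the difference.

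With 1 value for each of 2 groups, likeness to TSC22D3 could be measured only as closeness of both levels. The 5 loci nearest in log2 sum of both groups are given by position, since no transcript in the files comes with a gene name. The nearest, a very short locus with 1 transcript, was at chromosome 17, 58120386 to 58120466, with 20.4 FPKM in knockout cells and 142.0 FPKM in wild type cells. The next, at chromosome 1, 161195793 to 161208092, had 23.1 FPKM in knockout cells and 94.9 FPKM in wild type cells over 44 transcripts. Another very short locus with 1 transcript, at chromosome 1, 54990497 to 54990604, had 20.3 FPKM in knockout cells and 156.9 FPKM in wild type cells. A locus at chromosome 10, 115880621 to 115933979, had 27.0 FPKM in knockout cells and 106.9 FPKM in wild type cells. The last, at chromosome 1, 32192718 to 32230494, had 24.2 FPKM in knockout cells and 159.2 FPKM in wild type cells. At none of the 5 did a transcript pass a q-value of 0.05 in the authors' deposited table, where the lowest was 0.722. TSC22D3 was chosen for having passed, so its own q is not set against these.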

How the data were processed

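Deposited FPKM values, made by the authors as 1 value per transcript and group, were used as they stood, with the lower and upper bounds of the tracking table. Per the submitters' processing notes, Bowtie 1.1.2, TopHat and Cuffdiff were used with build hg19; the notes give the tools no role and name no annotation. The authors' deposited table also holds, per transcript, p-values and q-values, a score (the test statistic) and a log2 fold, in which wild type stands over knockout. The log2 fold was turned to knockout over wild type, recomputed from the FPKM. The tables named for genes and for transcripts were identical, and the RNA kit named in the labels is not described as strand-marking, so overlapping antisense RNA cannot be told apart.

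Transcripts of a locus (1-based positions) were summed; loci with a failed estimate were left out of counts over all loci. Folds carry no pseudocount. The text names each listed transcript and up to 6 per locus of at least 1 FPKM in a group, the listed one included. Members, lists and tests were chosen with earlier results of these data known. Of the transcript IDs, 0 matched a gene name table, so further pathway genes and SETD2 itself were not analysed here; gene symbols at the 8 loci come from fixed hg19 positions. Protein sequences were not used here. Promoter windows are RefSeq's, on GRCh38.p14. Summation and position matching were checked on simulated data. Python 3.11.15, pandas 2.3.3, numpy 2.4.6 and matplotlib 3.10.9 were used.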

Additional observations from a re-analysis of the deposited data

How the results depend on the processing

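Folds of the 8 locus sums were recomputed under up to 8 alternatives per gene: a pseudocount of 0.1 or 1 FPKM, the tracking table, the listed transcript alone, transcripts of at least 1 FPKM, tested transcripts, rows with the same locus as the listed transcript, and, chosen after seeing the data, the sum without the highest transcript. The log2 fold of TSC22D3 ran from -3.35 (listed transcript alone) to -1.87 (without it), and was lower in the knockout under all 8. TSC22D3 was chosen on this fall, and every setting but the last keeps its listed transcript, so nothing is read from the unchanged sign. TSC22D1 ran from 0.31 to 0.80, NR3C1 from 0.48 to 1.05 and KLF9 from 0.38 to 0.54, all higher in the knockout. The PER1 locus, whose sum can hold another gene's RNA, ran from 0.03 (listed transcript alone) to 0.43 (without the highest), also higher. The sign turned for FKBP5 (-0.32 for the listed transcript and -0.02 in the tracking table, against 0.13), for TSC22D2 (0.69 for the listed transcript and 0.30 without the highest, against -0.05) and for TSC22D4 (-0.003449 for the listed transcript, against 0.15). None moved further than the distance the authors' bounds of the leading transcript allow, which are wide. For NR3C1 the listed transcript gave no fold, being at 0. The count of called transcripts was 1 at a q-value of 0.05 or 0.10 and 2 at an unadjusted p under 0.05. Leave-one-out over libraries was not run, since no file gives a value per library. No paired analysis was possible because the tables hold 1 value per group. Depth is unknown, and the deposited bounds, which overlap for 67 of the 68 transcripts compared, limit what can be said of single transcripts.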

Other observations

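In the table of tests, 17 of the 98 transcripts of the 8 loci were listed at 0 in the knockout only, 3 in the wild type only, and 17 in both groups. The matching shares over the whole series are not given here, so nothing is read from these counts. Of the 17 at 0 in the knockout only, 7 had a value above 0 for the knockout in the tracking table, up to 2.06 FPKM, and the highest wild type value among the 17 was 1.68 FPKM. Of the 3 at 0 in the wild type only, 0 had a wild type value above 0 in the tracking table.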
